A study of Homo sapiens with 12 samples.

Results

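Chondroitin sulfate is a sulfated sugar chain carried by proteoglycans on the cell surface and in the extracellular matrix. To examine how its genes behaved when the m6A demethylase ALKBH5 was silenced, 10 genes were followed, namely CHST15, CHST11, CHST12, CHST14, UST, CHSY1, CHPF, CSGALNACT1, CSGALNACT2 and CSPG4. They were selected by gene name from the 29696 genes of the expression table, and all m6A peaks assigned to the same names were collected. All 10 genes were listed, and 9 of them were among the 12985 genes that were tested, since CHST15 lay below the limit of a mean of 0.5 FPKM. FPKM are fragments scaled by transcript length and by library size. CHST15 is in the set because of its own values in this comparison, as one of the genes that the study picked for both a raised m6A peak and a changed transcript level. Its values are therefore a description without a test.

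The cells were A375, a human melanoma cell line, and both groups had been infected with lentivirus. One group expressed shALKBH5, a short hairpin RNA against ALKBH5, and is labelled ALKBH5 knockdown. The other expressed the control hairpin shCtrl and is labelled wild type. Both groups were therefore cells given a hairpin vector, and the hairpin used against ALKBH5 was not named. The methods describe puromycin selection of infected cells, but the harvest time they give for RNA-Seq precedes its end, so how far the sequenced cells had been selected is unclear. Each group had 3 input libraries for expression, and 3 libraries immunoprecipitated (IP) with an anti-m6A antibody that reached the deposit as 1 peak list per group. The methods say in general terms that experiments were repeated independently, but nothing in the labels states that these 3 libraries came from separate cultures. The p-values therefore measure only the spread between these libraries, which may be technical.

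Synthesis of chondroitin sulfate starts on a linker of sugars attached to a core protein. CSGALNACT1 and CSGALNACT2 add the first N-acetylgalactosamine, and CHSY1 together with the polymerizing factor CHPF extends the chain of alternating glucuronic acid and N-acetylgalactosamine. CHST11 and CHST12 then place sulfate on position 4 of N-acetylgalactosamine, CHST14 does so in the epimerized form called dermatan sulfate, and UST sulfates the uronic acid. CHST15 adds a further sulfate to units already sulfated at position 4, which gives the disulfated E unit. CSPG4, also known as NG2, is a transmembrane proteoglycan known for its high level on melanoma cells.

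The targeted gene was lower in the knockdown libraries. For ALKBH5, the shALKBH5 libraries gave 3.39, 3.92 and 3.12 FPKM, and the shCtrl libraries 19.3, 17.8 and 17.6 FPKM. Values are always given in the order of replicates 1, 2 and 3. Summed FPKM were between 221946 and 223231 in shALKBH5 and between 212760 and 218966 in shCtrl libraries, and no read counts were used, so the depth is unknown. Of 8 melanoma and melanocyte lineage genes 7 were listed, with SOX10 at 181 FPKM in shALKBH5 and 184 FPKM in shCtrl and MLANA not listed. MITF was called higher, at 1.26 and 0.777 FPKM, although its groups overlapped. Other genes of this list were low, with PMEL at 0.611 and 0.237 FPKM and TYRP1 at 0.123 and 0.157 FPKM. TYR was at 0.0199 and 0 FPKM, and DCT at 0.0301 and 0.0324 FPKM. The summed level of that list was 262 to 267 FPKM in shALKBH5 and 214 to 225 FPKM in shCtrl, and S100B, at 82.1 and 32.9 FPKM, carried the difference. Among markers of other cells, PTPRC, CD3E, KRT5 and KRT1 were not listed. The summed level of the leukocyte list was 4.80 to 5.34 FPKM in shALKBH5 and 0.829 to 1.19 FPKM in shCtrl, almost all of it LYZ. The endothelial list summed to 3.75 to 4.24 and 2.33 to 2.64 FPKM, mainly KDR, while its marker VWF was at means of 0.222 and 0.301 FPKM. The fibroblast list summed to 2.89 to 4.09 and 2.11 to 2.21 FPKM, mainly LUM, while PDGFRA was at 0.242 and 0.422 FPKM, and COL1A2 and THY1 had means under 0.05 FPKM in both groups. In the keratinocyte list, which summed to 10.7 to 11.5 and 8.90 to 9.53 FPKM, KRT10 was called higher and KRT14, at 0.369 and 0.961 FPKM, lower. Each sum was thus higher in shALKBH5 mainly through 1 gene, and their part in the results was not tested. In bulk libraries, fewer cells of a kind and less RNA per cell cannot be told apart.

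CHST15 had the largest difference of the 10 genes and was the least expressed of them in shALKBH5 cells. CHST15 (ENSG00000182022, minus strand of chromosome 10, 124007668 to 124093598) had 0.216, 0.118 and 0.144 FPKM in the shALKBH5 libraries. In the shCtrl libraries it had 0.735, 0.669 and 0.687 FPKM. Every shALKBH5 library lay below every shCtrl library, and the spread among the shALKBH5 libraries was large beside their level. The mean of 0.159 ± 0.0510 FPKM in shALKBH5 was 4.37 times lower than the mean of 0.697 ± 0.0339 FPKM in shCtrl (SD, n = 3 each). On the log2(FPKM + 0.1) scale used throughout, the difference was -1.64, with 0.1 FPKM added so that values near 0 do not dominate. At such low FPKM the added value matters, and the difference was -0.55 with 1 FPKM added and -2.10 with 0.01 FPKM added. Relative to UST, the other enzyme that acts on already sulfated chains, CHST15 stood at 0.0914, 0.0543 and 0.0711 in the shALKBH5 libraries and at 0.345, 0.298 and 0.326 in the shCtrl libraries. The mean of this ratio was 4.47 times lower in shALKBH5. Relative to CHST11 it was 4.12 times lower.

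**Figure D1:**
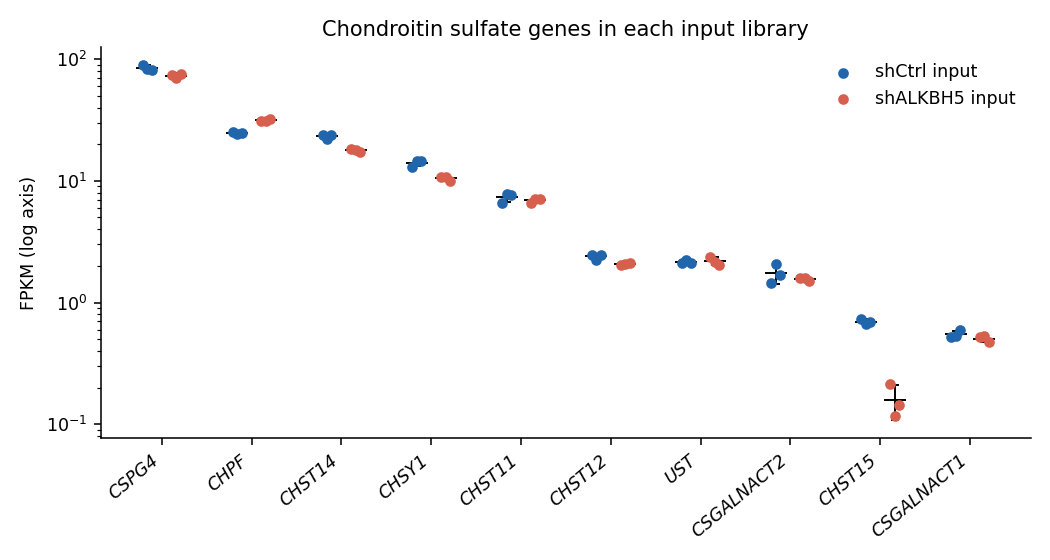
FPKM (log axis) of the 10 chondroitin sulfate genes in each of the 3 shCtrl and 3 shALKBH5 input libraries, with the mean as a bar and the SD as an error bar. CHST15 drops from a mean of 0.697 to 0.159 FPKM, CHPF is the gene whose shALKBH5 points lie above all its shCtrl points, and UST, CHST11, CSGALNACT1 and CSGALNACT2 overlap between groups.

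The other 9 genes were tested. With limma on log2(FPKM + 0.1) and Benjamini-Hochberg adjustment over all genes tested, 4 of the 9 had an adjusted p-value under 0.05, when 61.0% of all tested genes did. CHPF was higher, where 34.7% of all genes were called higher, and CHSY1, CHST14 and CSPG4 were lower, where 26.2% were called lower. In 5 of the 9 genes no value of one group fell within the range of the other, compared with 67.0% of all tested genes. The median log2 fold change of the 9 genes was -0.12, and that of all tested genes was 0.09. Set against the whole table, these counts mark nothing particular to the set.

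**Figure D2:**
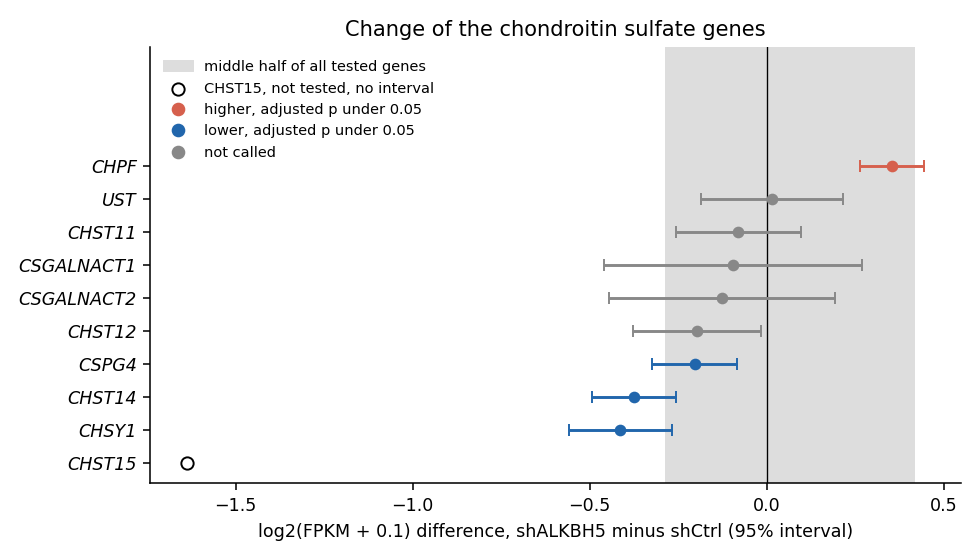
Difference of log2(FPKM + 0.1), shALKBH5 minus shCtrl, with its 95% interval from limma for the 9 tested genes, over a band from the lower to the upper quartile of all tested genes (-0.28 to 0.42). CHSY1 at -0.41 and CHST14 at -0.37 lie below the band, CHPF at 0.35 lies inside it, and CHST15, drawn open at -1.64, has no interval because it was not tested.

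The core protein CSPG4 fell modestly from a high level. CSPG4 (chromosome 15, 75674322 to 75712848, minus strand) was at 73.6, 70.0 and 76.1 FPKM in shALKBH5 and at 89.4, 82.6 and 81.0 FPKM in shCtrl. The highest shALKBH5 value was still under the lowest shCtrl value, with a gap smaller than the range of values within either group. The means were 73.2 ± 3.07 and 84.3 ± 4.43 FPKM (SD, n = 3 each), giving a log2 fold change of -0.20 with a standard error of 0.0512 (limma, adjusted p = 0.0108). CSPG4 was the highest of the 10 genes in both groups.

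Among the genes that build the chain, the partners CHSY1 and CHPF moved in opposite directions. CHSY1 (chromosome 15, 101175727 to 101252048, minus strand), the chondroitin synthase, was at 10.8, 10.8 and 9.89 FPKM in shALKBH5 and at 13.1, 14.4 and 14.5 FPKM in shCtrl. The groups did not overlap, and its log2 fold change of -0.41 had a standard error of 0.0621 (limma, adjusted p = 0.000873). CHPF (chromosome 2, 219538948 to 219543809, minus strand) was at 31.2, 31.3 and 32.4 FPKM in shALKBH5 and at 25.2, 24.3 and 24.6 FPKM in shCtrl. All of its shALKBH5 values were above all shCtrl values, for a log2 fold change of 0.35 with a standard error of 0.0386 (limma, adjusted p = 0.000169). Within a library, CHPF stood at 2.88, 2.90 and 3.28 times CHSY1 in shALKBH5 and at 1.93, 1.68 and 1.69 times CHSY1 in shCtrl. The mean ratio was 3.02 ± 0.224 in shALKBH5 and 1.77 ± 0.138 in shCtrl (SD, n = 3 each), 1.71 times higher in shALKBH5, and the ratios of the groups did not overlap.

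The 2 genes that start the chain did not pass the test. CSGALNACT2 (chromosome 10, 43138445 to 43185302, plus strand) was at 1.60, 1.59 and 1.51 FPKM in shALKBH5 and at 1.44, 2.09 and 1.68 FPKM in shCtrl. The shCtrl libraries enclosed all shALKBH5 values, with replicate 2 the highest. Its log2 fold change was -0.12 (95% interval -0.44 to 0.19, adjusted p = 0.456 from limma). CSGALNACT1 (chromosome 8, 19404161 to 19758029, minus strand) was at 0.517, 0.527 and 0.473 FPKM in shALKBH5 and at 0.526, 0.527 and 0.589 FPKM in shCtrl. The groups overlapped, and the log2 fold change was -0.10 (95% interval -0.46 to 0.27, adjusted p = 0.621 from limma). With a mean of 0.527 FPKM over the 6 libraries, CSGALNACT1 was just above the limit for testing, and its wide interval leaves changes of either sign possible.

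Of the sulfotransferases acting at position 4, CHST14 fell and CHST11 and CHST12 did not pass the test. CHST14 (chromosome 15, 40470984 to 40473158, plus strand), the dermatan enzyme, was at 18.3, 18.1 and 17.2 FPKM in shALKBH5 and at 24.0, 22.0 and 23.6 FPKM in shCtrl. These groups were well apart, with means of 17.9 ± 0.571 and 23.2 ± 1.09 FPKM (SD, n = 3 each). This was a log2 fold change of -0.37 with a standard error of 0.0505 (limma, adjusted p = 0.000509).

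CHST12 (chromosome 7, 2403588 to 2448484, plus strand) was at 2.05, 2.07 and 2.10 FPKM in shALKBH5 and at 2.48, 2.24 and 2.46 FPKM in shCtrl. The groups did not overlap, but the log2 fold change of -0.20 (95% interval -0.38 to -0.02) had an adjusted p of 0.0576 from limma. The call turned on the settings. CHST12 passed with an adjusted p of 0.0249 after each library was rescaled by its median ratio, with 0.0287 without a trend in the variance, and with 0.0308 without shCtrl replicate 2. CHST11 (chromosome 12, 104455295 to 104762014, plus strand) was at 6.64, 7.14 and 7.09 FPKM in shALKBH5 and at 6.62, 7.82 and 7.65 FPKM in shCtrl. Its groups overlapped, with a log2 fold change of -0.08 (95% interval -0.26 to 0.10, adjusted p = 0.393 from limma). CHST14 relative to CHST11 was at 2.76, 2.53 and 2.43 in shALKBH5 and at 3.62, 2.81 and 3.09 in shCtrl, which did not overlap, whereas the ratio of CHST12 to CHST11 did overlap.

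UST (chromosome 6, 148747030 to 149076990, plus strand) was at 2.37, 2.16 and 2.03 FPKM in shALKBH5 and at 2.13, 2.25 and 2.10 FPKM in shCtrl. The shCtrl range lay inside the shALKBH5 range, and the log2 fold change was 0.02 (95% interval -0.19 to 0.22, adjusted p = 0.888 from limma).

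FPKM are scaled by length, so the levels of the genes can also be ordered within a group. In both groups the mean FPKM fell in the order CSPG4, CHPF, CHST14, CHSY1 and CHST11, followed by CHST12 and UST, whose ranges overlapped with each other, and then CSGALNACT2. No other neighbours in this order had overlapping ranges within a group. CHPF and CHST14 were nearly level in shCtrl, where the lowest CHPF value was 24.3 and the highest CHST14 value 24.0 FPKM, and stood at 31.6 and 17.9 FPKM on average in shALKBH5. The last places were exchanged between the groups, with CHST15 above CSGALNACT1 in shCtrl and below it in shALKBH5.

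The remaining genes of the pathway were taken as lists, described by their counts and with no test of a list. Each count stands beside the same shares of all tested genes, 34.7% higher and 26.2% lower, and nothing particular to a list is read from it. Among the 6 polymerization genes, 5 were tested, with 2 higher and 1 lower. CHPF2, a further polymerizing factor, was higher together with CHPF, from 16.4 ± 1.23 to 32.1 ± 1.82 FPKM (SD, n = 3 each, log2 fold change 0.97, adjusted p = 1.845e-05 from limma). CHSY3, a second chondroitin synthase that was below the limit for testing, was at a mean of 0.195 FPKM in shALKBH5 and 0.558 FPKM in shCtrl. Of the 10 genes for sulfation and epimerization, 6 were tested, of which none was higher, 2 were lower and 4 were not called. The lower genes were CHST14 and CHST3, which sulfates position 6. CHST3 was at 10.5 ± 0.293 FPKM in shALKBH5 and 13.5 ± 0.747 FPKM in shCtrl (SD, n = 3 each, log2 fold change -0.36, adjusted p = 0.000997 from limma). The epimerases DSE and DSEL, which make dermatan sulfate, were below the limit, at means of 0.156 and 0.0492 FPKM in shALKBH5 and 0.206 and 0.195 FPKM in shCtrl.

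Upstream of the chain, 7 of 7 linkage region genes were tested, with 2 higher and 3 lower. XYLT1, a xylosyltransferase that begins the linker, fell from 3.54 ± 0.157 to 1.15 ± 0.0790 FPKM (SD, n = 3 each, log2 fold change -1.54, adjusted p = 6.797e-06 from limma). B3GAT3, which adds the last sugar of the linker, rose from 50.7 ± 2.47 to 86.3 ± 0.990 FPKM (log2 fold change 0.77). PXYLP1, a phosphatase of the linker xylose, fell from 2.98 ± 0.370 to 1.29 ± 0.0297 FPKM (log2 fold change -1.14). In the list for sulfate donor and nucleotide sugar supply, 11 of 12 genes were tested, with 5 higher and 5 lower. SLC26A2, a sulfate transporter of the plasma membrane, had the largest log2 fall of the tested genes of these lists. It was at 7.53, 5.36 and 6.80 FPKM in shALKBH5 and at 23.8, 34.7 and 25.4 FPKM in shCtrl (log2 fold change -2.07, standard error 0.168, adjusted p = 3.916e-05 from limma). UXS1, which makes UDP-xylose, and UGP2, which makes UDP-glucose, fell by 1.08 and by 1.04 on the log2 scale.

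Of the 14 core protein genes, 8 were tested, with 1 higher and 5 lower, beside 34.7% and 26.2% of all tested genes. BGN, the small proteoglycan biglycan, fell from 143 ± 5.68 to 69.1 ± 0.241 FPKM (SD, n = 3 each, log2 fold change -1.05, adjusted p = 1.160e-06 from limma). APLP2 fell from 55.6 ± 2.94 to 32.0 ± 0.711 FPKM (log2 fold change -0.80), and CD44, the hyaluronan receptor, from 137 ± 6.99 to 115 ± 1.92 FPKM (log2 fold change -0.24). CSPG4 had the smallest log2 fold change of the 5 core protein genes called lower. The core protein gene called higher was SRGN, from 1.79 ± 0.487 to 2.60 ± 0.394 FPKM, with groups that overlapped (log2 fold change 0.54, adjusted p = 0.0425 from limma). Among core protein genes below the limit for testing whose groups did not overlap, VCAN and DCN were higher and CSPG5 lower. Their means were 0.497, 0.291 and 0.126 FPKM in shALKBH5 and 0.301, 0.187 and 0.393 FPKM in shCtrl. For comparison, heparan sulfate shares the linker but follows another route of synthesis, and of 14 tested genes of that route 2 were higher and 7 lower, beside the same 34.7% and 26.2%, with a median log2 fold change of -0.30. The largest falls there were HS3ST3A1 with -1.32, and the extracellular sulfatases SULF2 with -1.18 and SULF1 with -0.94. The 3 genes of the lists whose levels over the 6 libraries were most like those of CHST15, of 53 genes compared, were BGN, SULF2 and APLP2, with Pearson's r of 0.982, 0.980 and 0.977. These values describe a shared split between the groups, as the same 6 libraries and their group difference carry all of them.

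**Figure D3:**
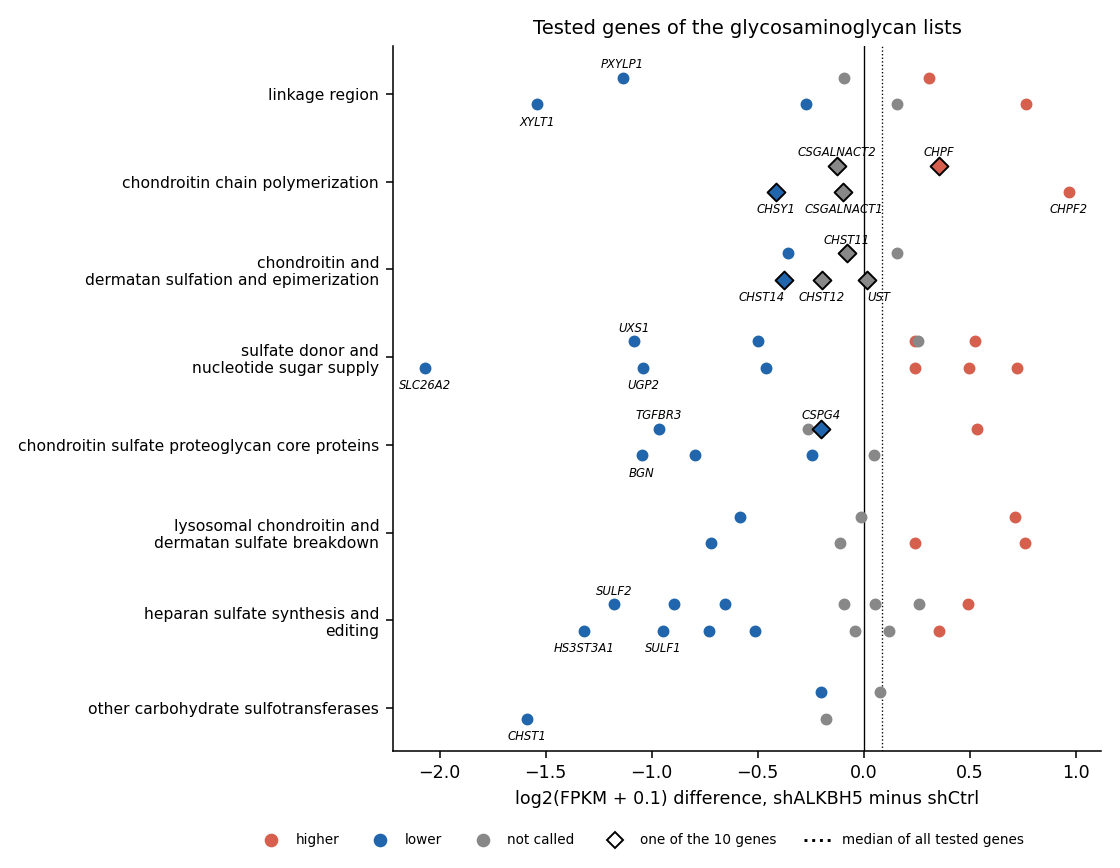
Difference of log2(FPKM + 0.1), shALKBH5 minus shCtrl, for each tested gene of 8 glycosaminoglycan gene lists, coloured by whether the adjusted p-value was under 0.05, with the chondroitin sulfate genes as diamonds. The diamonds lie between -0.41 and 0.35, whereas XYLT1, SLC26A2, BGN, SULF2 and CHST1 reach -1.54, -2.07, -1.05, -1.18 and -1.59.

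The m6A peaks of the genes were then examined. In MeRIP-Seq, RNA fragments carrying m6A are precipitated with an antibody, and the fold enrichment of a peak is the IP signal over the input signal as the authors' peak caller gave it. The 10 genes had 34 of 46039 peaks in the shALKBH5 list and 37 of 44304 in the shCtrl list, and each gene had at least 1 peak in each list. The peaks have no values per library, so no difference between the lists has a replicate check. The median number of peaks per gene was 2.5 in shALKBH5 (range 1 to 10) and 3 in shCtrl (range 2 to 11), and both lists had a median of 2 over all genes with a peak. CHST12 had the most peaks, with 10 and 11. The fewest were found for UST, with 1 in shALKBH5 and 2 in shCtrl, where CHPF, CHST14 and CSGALNACT2 also had 2. CHST14 had a pair of nearly identical, overlapping entries in each list.

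The 3'UTR was the region with the most peaks of these genes. The 3'UTR held 21 of 34 peaks in the shALKBH5 list, 61.8% (95% Wilson interval 45.0 to 76.1%), and 27 of 37 in the shCtrl list, 73.0% (57.0 to 84.6%). CHST12 alone gave 9 and 10 of these 3'UTR peaks, and without it the shares were 12 of 24 (50.0%) and 17 of 26 (65.4%). Over all genes they were 45.5% and 46.2%, or 56.2% and 56.4% when peaks in exons of noncoding RNAs were left out. The 5'UTR held 7 peaks in each list, other exons held 6 in shALKBH5 and 3 in shCtrl, and none was annotated to an intron or a noncoding RNA. All 9 tested genes of the set had a 3'UTR peak in both lists, as did 65.2% of tested genes in general, and so did CHST15. Several peaks of 1 gene are not independent, and the intervals cover counting error only.

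**Figure D4:**
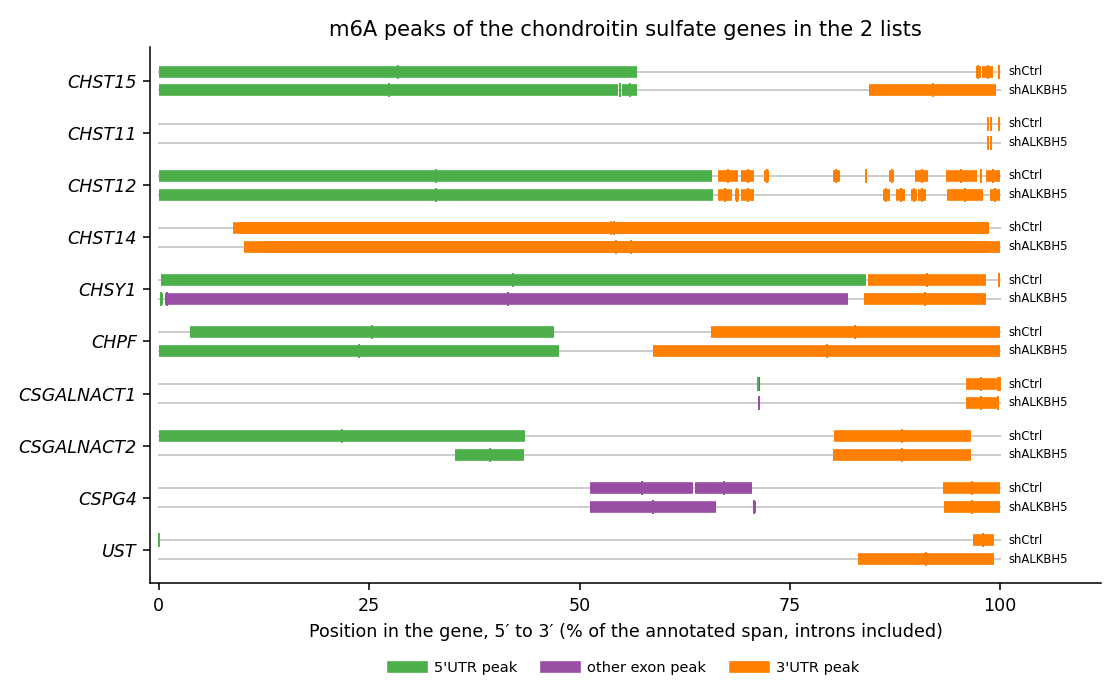
Position of every m6A peak of the 10 genes along the gene, from the 5' to the 3' end in percent of the annotated span with introns included, with the shCtrl list above the shALKBH5 list and colours for the annotated region. Each gene has a 3'UTR peak (orange) at its right end in both lists, and that of CHST15 is 12930 bp long in shALKBH5, where shCtrl has 2 shorter peaks inside it and 1 outside it.

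The peaks overlapped widely between the lists. Of the shALKBH5 peaks of these genes, 31 of 34 (91.2%, 77.04 to 97.0%) shared at least 1 bp of the same strand with a shCtrl peak, and 28 of 37 shCtrl peaks (75.7%, 59.9 to 86.6%) did so with a shALKBH5 peak. Over all genes the shares were 78.1% and 81.3%. Requiring a reciprocal overlap of 50% lowered the shares of these genes to 61.8% and 56.8%, and those of all genes to 51.6% and 53.7%. Peak spans include introns and can therefore be long, and 7 (20.6%) and 6 (16.2%) of the peaks spanned more than 10000 bp, beside 10.7% and 10.9% over all genes.

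CHST15 showed the highest enrichment among the 10 genes, and its values are a description because a raised peak was part of how it was chosen. Its 3'UTR peak in the shALKBH5 list ran from 124008086 to 124021015, leaving 418 bp to the 3' limit of the gene, and had a fold enrichment of 49.0, which was at the 99.4th percentile of that list. The shCtrl list held 3 shorter 3'UTR peaks, from 124007668 to 124007877, from 124008355 to 124009550 and from 124009610 to 124010177. Their fold enrichments were 7.66, 6.52 and 5.92. The latter 2 of these lay inside the long shALKBH5 peak, while the first did not overlap it and had a log10 FDR of -0.791, which is an FDR above 0.05.

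The 5'UTR of CHST15 looked more alike between the lists. In shCtrl a single peak ran from 124044804 to 124093598 with a fold enrichment of 14.0. In shALKBH5 the same stretch held 3 peaks, with fold enrichments of 9.19, 2.90 and 13.5 from the 3' to the 5' side. Their log10 FDR values were -7.38, -2.19 and -2.37, beside -18.6 for the shCtrl peak, so the peak at 13.5 was less well supported than that at 14.0. Because fold enrichment divides by the input, and the CHST15 input was 0.159 FPKM in shALKBH5 and 0.697 FPKM in shCtrl, the level of the transcript moved together with the 3'UTR value, and its part in it was not tested. Across the lists, peaks of genes with a mean under 0.5 FPKM had a median fold enrichment of 7.35 in shALKBH5 and 7.66 in shCtrl. For genes with at least 0.5 FPKM the medians were 4.29 and 4.34.

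**Figure D5:**
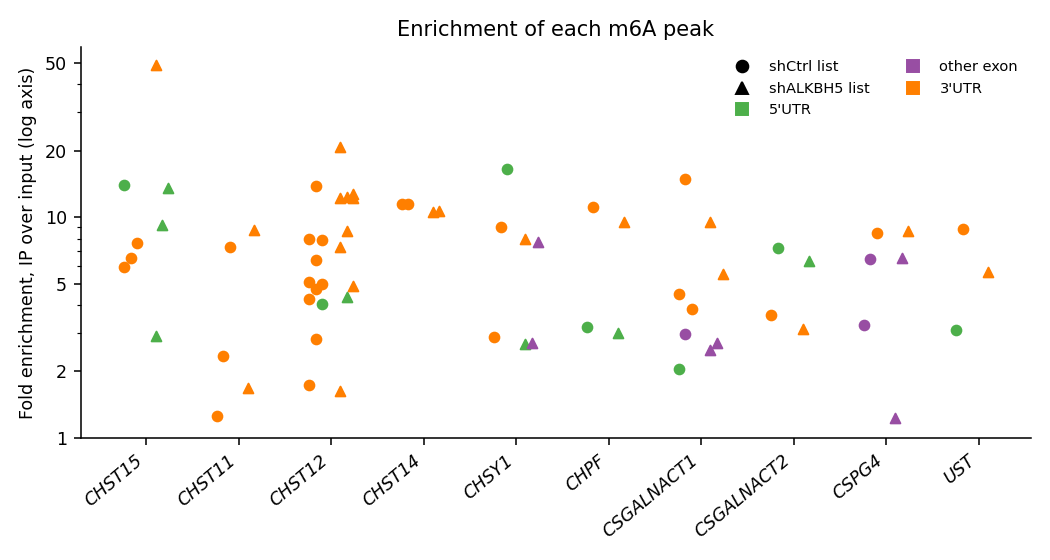
Fold enrichment of IP over input (log axis) of each m6A peak of the 10 genes, with circles for the shCtrl list, triangles for the shALKBH5 list and colours for the annotated region. The CHST15 3'UTR peak at 49.0 in shALKBH5 stands above the other peaks of the set, of which the highest are CHST12 at 20.8 in shALKBH5 and CHSY1 at 16.6 in shCtrl.

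The enrichments of overlapping peaks were then set side by side. Counting only peaks that overlapped exactly 1 peak of the other list, there were 15 pairs in the set, 6 with the higher fold enrichment in shALKBH5 and 9 with the lower, and the median log2 ratio was -0.08. Over all 23026 such pairs, 45.8% were higher in shALKBH5 and the median log2 ratio was -0.04. The 3'UTR peaks of CSPG4 were at 8.65 in shALKBH5 and 8.48 in shCtrl, and those of CHPF at 9.50 and 11.1. The main CHST11 3'UTR peak was at 8.73 and 7.30, and the CHST14 entries were at 10.6 and 10.7 in shALKBH5 and both at 11.5 in shCtrl.

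Further pairs and peaks were as follows. The UST 3'UTR peak was at 5.63 in shALKBH5, where it ran from 149021379 to 149074456, and at 8.81 in shCtrl, where it began only at 149066252. Under a reciprocal overlap of 50% these were not the same peak. A UST peak in the 5'UTR with a fold enrichment of 3.09 was listed in shCtrl alone. The long 3'UTR peak of CSGALNACT1 was at 9.51 in shALKBH5 and 14.9 in shCtrl, while a shorter one beside it was at 5.51 and 3.83. CHSY1 was covered over most of its length in both lists, by a peak at 7.73 annotated to an exon in shALKBH5 and by one at 16.6 annotated to the 5'UTR in shCtrl. CHST12 had its highest fold enrichment in shALKBH5, 20.8 with a log10 FDR of -4.2, in a 3'UTR peak from 2444111 to 2444530. This peak lay inside a stretch where the shCtrl list had 1 less well supported peak, at 6.38 with a log10 FDR of -1.64. A further 3'UTR pair was at 12.2 in shALKBH5 and 4.26 in shCtrl, with log10 FDR values of -2.08 and -2.78. Its peaks shared just 31 bp and were not the same peak under a reciprocal overlap of 50%. A CHST12 3'UTR peak with the same limits in both lists, from 2434645 to 2435364, was at 12.7 in shALKBH5 and 8.00 in shCtrl. The long 3'UTR peak beginning at 2445638 in shALKBH5 and 2445608 in shCtrl was at 8.68 and 7.85. The best supported CHST12 3'UTR peak began at 2433417 in both lists and was lower in shALKBH5, at 12.4 beside 13.9. Its log10 p from the authors' peak caller was -749 in shALKBH5 and -924 in shCtrl. The CHST12 pair at the 3' end of the gene was nearly level, at 4.9 and 4.98.

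The deposited table of differential peaks held 11 entries for 7 of the 10 genes. CHST15 was chosen through its raised peak, and without it the count was 6 of 9 genes. Of all genes with a peak in either list, 27.3% had an entry. Those genes include noncoding genes and genes under 0.5 FPKM, unlike the 9, so these shares are not like for like. CHPF, UST, CSGALNACT2 and CHST14 had 2 entries each, of which those of CHST14 overlapped, and CHST15, CHSY1 and CHST11 had 1 each. The entry of CHST15 lay in the 3'UTR from 124008295 to 124010177, within the long shALKBH5 peak. No entry was listed for CHST12, CSGALNACT1 and CSPG4. Of the genes with an entry, CHPF, CHSY1 and CHST14 were also called in expression, while UST, CSGALNACT2 and CHST11 were not.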

How the data were processed

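Expression (input libraries) and m6A peaks (MeRIP-Seq) were measured in shALKBH5 and shCtrl A375 cells, grouped by their labels. The 10 genes, the gene lists and the tests were chosen with earlier results of these data known. The authors deposited expression as FPKM per input library, and the methods name edgeR for quantification. The aligner and the annotation are not given in the sources used here. The labels name the genome build mm10, a mouse build, although the gene identifiers are human. Of the 10 genes, 4 had both ends and 10 had at least 1 end equal to those of the RefSeq annotation of the human genome. For m6A the authors deposited, per group, 1 list of peaks holding the fold enrichment (a ratio of IP over input), and log10 p and log10 FDR of each peak, used here as a score. The peak caller, and whether libraries were pooled, are not given in the sources used here. The authors' own fold changes, p-values and FDR for expression and for differential peaks were not used. From the deposited table of differential peaks, only positions and annotations were read.

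Expression was tested two-sided with limma 3.58.1 in R 4.3.3, through lmFit and eBayes with a trend in the variance. The test ran on log2(FPKM + 0.1) of all genes whose mean over both groups reached 0.5 FPKM, and p-values were adjusted by Benjamini-Hochberg over those genes. Differences on this scale understate the change of low genes. The script was tested on simulated data. Without counts the depth is unknown, and 3 libraries per group limit the precision. At most 0.123% of values were identical in any pair of libraries. Across genes, r was 0.981 to 0.984 within a group and 0.929 to 0.934 between groups. Peak starts count from 0 in the lists and were shifted by 1. Shares of peaks have 95% Wilson intervals. Lists, peaks and figures were handled with matplotlib 3.10.9, pandas 2.3.3, numpy 2.4.6 and scipy 1.17.1 in Python 3.11.15.

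Named are the 10 genes, ALKBH5, and from each list up to 3 further genes. These had the largest changes of the genes that passed an adjusted p-value of 0.05 with separate groups and 1 FPKM or more in the higher group. The 3 listed genes most correlated with CHST15 were named too. CHSY3, DSE, DSEL, SRGN, VCAN, DCN, CSPG5 and the markers were named in addition, and are not among the 29 genes followed through the alternatives. Alternatives tried were other pseudocounts (1 and 0.01), testing every gene, a limit of 1 FPKM, rescaling by the median ratio, a replicate block, no variance trend, and the omission of each library. For peaks they were a stricter limit (fold enrichment from 2 and FDR up to 0.01), matching by identifier, and a reciprocal overlap of 50%. Sequences of the peaks were not analysed here.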

Additional observations from a re-analysis of the deposited data

How the results depend on the processing

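The count of genes called (7917) ranged from 6874 to 7833 with a library left out and was 7271 (4142 higher, 3129 lower) with a replicate block, and 4 or 5 of the chondroitin sulfate genes other than CHST15 were called under each setting. Same-numbered libraries of the groups did not deviate together (r = 0.02, -0.05 and 0.06). This gives no sign that the replicate numbers pair them, but cannot show that they were prepared separately. With the block the same number, 4, was called. Rescaling gave 3788 higher and 3898 lower and moved the median of all tested genes from 0.09 to 0.02. The CHST15 difference was -0.55 and -2.10 at pseudocounts of 1 and 0.01, -1.69 after rescaling, and between -1.79 and -1.52 with a library left out. The shares of overlapping peaks moved to 61.8% and 56.8% at a reciprocal overlap of 50%. Stricter peaks left 30 and 29 peaks, and counting the CHST14 entries once, an alternative chosen after seeing the data, left 33 and 36. Leaving out the peaks of CHST12, also chosen after seeing the data, gave overlapping shares of 91.7% and 76.9%. Of 376 alternative values for 29 named genes, 371 kept their side of the threshold, 3 were CHST12 passing it, and 2 were CHST2 missing it without shALKBH5 replicate 1 or 2 (adjusted p = 0.0553 and 0.0551 from limma). CSGALNACT2 and UST, which were not called, changed sign in at least 1 alternative, to 0.0095 for CSGALNACT2 without shCtrl replicate 2 and as low as -0.06 for UST. Outlying libraries were not looked for, since each group had 3. The unknown depth limits the statements on CHST15, CSGALNACT1 and the epimerases, which were all near or below 0.5 FPKM.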

Other observations

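The lysosomal enzymes that break down chondroitin and dermatan sulfate were examined as a list. Of 8 genes, 7 were tested, with 3 higher and 2 lower in shALKBH5 cells, beside 34.7% and 26.2% of all tested genes, and a median log2 fold change of -0.01. These counts mark nothing particular to the list. ARSB, which removes the sulfate at position 4 that CHST11, CHST12 and CHST14 place, fell from 3.55 ± 0.0765 to 2.12 ± 0.146 FPKM (SD, n = 3 each, log2 fold change -0.72, adjusted p = 0.000141 from limma). IDUA and IDS, which act on the iduronic acid of dermatan sulfate, rose from 1.68 ± 0.272 to 2.89 ± 0.0589 FPKM and from 4.47 ± 0.554 to 7.35 ± 0.187 FPKM (SD, n = 3 each). Their log2 fold changes were 0.76 and 0.71 (adjusted p = 0.00101 and 0.000386 from limma).

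Sulfotransferases of the same family that act on other sugar chains had 4 tested genes, of which none was higher and 2 were lower, beside the same 34.7% and 26.2%. CHST1, a keratan sulfate sulfotransferase, was at 0.846, 0.930 and 1.03 FPKM in shALKBH5 and at 2.90, 3.47 and 2.69 FPKM in shCtrl (log2 fold change -1.59, adjusted p = 3.272e-05 from limma). Its level was higher than that of CHST15 in both groups. CHST2, a sulfotransferase of N-acetylglucosamine, was at 8.26 ± 0.399 FPKM in shALKBH5 and 9.51 ± 0.186 FPKM in shCtrl (SD, n = 3 each, log2 fold change -0.20, adjusted p = 0.0136 from limma), a call that was lost without shALKBH5 replicate 1 or without replicate 2.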
